A study of Mus musculus with 26 samples.

Results

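The genes described here are 40 interferon-stimulated genes, listed by name and followed across the cell types of the mouse RPE/choroid, in cultured GLI1+ stromal cells treated with a Hedgehog agonist, and in RPE/choroid tissue lacking endothelial Indian hedgehog (IHH). All 40 had a row in both bulk RNA sequencing tables, among 17623 genes, and 39 had a row in both scRNAseq count tables, among 16426 genes. Mx2 had no UMI count row and is not analysed in single cells here.

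Interferons bind receptors that activate the kinases JAK1 and TYK2, which activate transcription factors of the cell, STAT2 and IRF9 among them. These bind interferon-stimulated response elements and switch on antiviral genes, many of which are also transcribed at a low level without infection. The retinal pigment epithelium (RPE) and the choroid beneath it, a bed of ECs, stromal cells, melanocytes, nerve sheath cells and resident leukocytes, supply and maintain the photoreceptors.

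The scRNAseq data were 2 libraries of sorted viable nucleated cells, 1 from 3-month-old C57BL/6J mice and 1 from 3-month-old B6129PF1/J mice, each a pool of 1 male and 1 female eye. The culture data were choroidal GLI1+ cells from Gli1GFP/+ mice (labelled SWR/J), sorted by GFP and expanded from pooled animals, then given 100 nM SAG, an agonist of the Hedgehog transducer Smoothened, or the solvent DMSO for 24 h. The tissue data were RPE/choroid of 6-month-old C57BL/6J IhhiΔEC/ΔiEC mice, in which tamoxifen given 12 weeks before had activated an endothelial Cre (driven by Cdh5) to delete Ihh, and of Ihh wild-type littermates that carried the same Cre and received tamoxifen too. Each bulk group had 3 libraries, but the tables hold only the average of the 3, in FPKM (fragments scaled to transcript length and to library size). The spread between libraries is therefore unknown, no test between groups was run, and "lower" or "higher" below means the ratio of the averages. The GLI1+ replicates came from 1 expanded stock, so they would in any case not stand for separate animals.

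The scRNAseq libraries held 3637 cells with 17168578 UMIs (unique molecular identifiers, 1 per captured mRNA) for B6129PF1/J and 3928 cells with 15230413 UMIs for C57BL/6J. Both numbers are somewhat below the cell numbers given in the study's methods. The 13 clusters are the deposited ones, with names that follow the study's cell types. Their cell numbers differ from the study's in both directions. The marker lists were highest in clusters of the matching name, for example 1371 and 1280.5 UMIs per 10,000 of the RPE list in the RPE cluster. The exception was that mast cell markers peaked in melanocytes in B6129PF1/J. The hematopoietic clusters differed in makeup. Mast cell markers summed to 0.0914 UMIs per 10,000 there in the B6129PF1/J library and 28.1 in the C57BL/6J library. Doublets were not removed, and 22 cell barcodes occurred in both libraries.

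Many member promoters carry the letters of the response element, which makes it possible to show what these genes share in sequence. Of the 40 members, 30 had a promoter in the RefSeq table used here (GRCm38.p6, 250 bases before to 50 bases after the start). The letters searched were GAAA, any 2 bases, then GAAA, on either strand, with overlapping matches allowed. At least 1 match occurred in 17 of 30 members (56.7%) and in 1079 of 27025 genes of the table (3.99%). In Isg15, Oas1a, Bst2, Irgm1 and Gbp3 the matches overlapped, so that GAAA recurred at 6-base steps. The stretches below are those around the match nearest to the start, read 5′ to 3′ along the gene, with each match in capitals. TTTC marks the same letters on the other strand. The first capital of the Ifit3 stretch is the last base of a further match, which the stretch cuts off. They are shown because the results below turn on these genes, and together they span effectors, a transcription factor and GTPases.
Isg15: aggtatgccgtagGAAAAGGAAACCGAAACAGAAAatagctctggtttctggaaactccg
Ifit1: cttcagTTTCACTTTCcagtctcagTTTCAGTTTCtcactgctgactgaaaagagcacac
Ifit3: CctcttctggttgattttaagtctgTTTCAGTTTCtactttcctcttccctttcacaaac
Oas1a: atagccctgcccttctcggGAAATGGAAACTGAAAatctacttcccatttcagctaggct
Bst2: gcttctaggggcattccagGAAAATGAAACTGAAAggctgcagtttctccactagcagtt
Irgm1: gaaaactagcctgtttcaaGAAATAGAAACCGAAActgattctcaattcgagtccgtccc
Gbp3: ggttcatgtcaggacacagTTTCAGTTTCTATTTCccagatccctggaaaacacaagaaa
Stat2: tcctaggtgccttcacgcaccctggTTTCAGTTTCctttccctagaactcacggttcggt
Rsad2: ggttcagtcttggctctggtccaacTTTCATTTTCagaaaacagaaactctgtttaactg
Ifitm3: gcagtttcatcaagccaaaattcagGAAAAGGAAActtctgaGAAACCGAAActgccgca

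On GRCm38.p6 the Isg15 stretch lies at chr4:156200850-156200909 on the minus strand, the Ifit1 stretch at chr19:34640779-34640838 on the plus strand and the Ifit3 stretch at chr19:34583382-34583441 on the plus strand. The Rsad2 stretch lies at chr12:26456538-26456597 on the minus strand and the Stat2 stretch at chr10:128270251-128270310 on the plus strand. Oas1a (chr5:120907505-120907564), Bst2 (chr8:71537562-71537621) and Ifitm3 (chr7:141010708-141010767) are on the minus strand, as is Irgm1 (chr11:48871410-48871469), and Gbp3 (chr3:142559980-142560039) is on the plus strand. Each stretch lies upstream of, or across, the transcript start that the promoter table uses. For Ifit3 the gene annotation begins further upstream, at position 34583119, so its stretch lies inside the annotated gene. The letters of a gamma-activated site (TTC, any 3 bases, GAA) were found in 7 of the 30 members (23.3%) and in 9.55% of all genes. The 13 members without a match of the first kind included Ifit2, Irf7, Irf9, Oasl2, Ifi44 and Tap1, and no match says only that these letters are absent from this window.

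In GLI1+ cells SAG was accompanied by lower average levels of almost every member. As a check of the treatment, 3 Hedgehog targets were higher with SAG. Gli1, the transcription factor that reports pathway activity, was 0.0280 FPKM with DMSO and 3.65 FPKM with SAG, Ptch1, the Hedgehog receptor, 1.13 and 10.1, and Hhip, a Hedgehog-binding protein, 0.368 and 1.28. Of the 40 members, 37 reached 1 FPKM in at least one group. Of these, 36 were at least 2-fold lower with SAG and 0 were at least 2-fold higher, whereas 1.18% of the 10325 genes that reached 1 FPKM were at least 2-fold lower and 0.387% at least 2-fold higher. The members' median log2 ratio was -1.98, and the median over all 10325 genes was 0.06.

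The antiviral effectors held the largest ratios. Isg15, a ubiquitin-like modifier, averaged 120 FPKM with DMSO and 15.2 FPKM with SAG, which is 7.88-fold lower. Ifit1, a protein that binds foreign RNA caps, averaged 54.8 and 6.43 FPKM, and its neighbor Ifit3 averaged 18.4 and 1.01 FPKM, which is 18.3-fold lower. Mx1, a dynamin-like GTPase annotated as a transcribed pseudogene in the reference strain, averaged 3.82 FPKM with DMSO and 0.01 FPKM with SAG. Rsad2, which makes a chain-terminating nucleotide, averaged 1.32 and 0.0270 FPKM. Values this close to 0 rest on few fragments, and the sequencing depth of these tables is unknown, so the ratios of Mx1 and Rsad2 are not given as sizes. Oas1a, one of the synthetases that activate RNase L, was 14.9-fold lower (2.83 and 0.190 FPKM). Ifitm3, which blocks viral entry and had the highest level, had the smallest ratio among the effectors, with 565 and 261 FPKM (2.16-fold lower). Bst2 (tetherin) averaged 198 and 56.3 FPKM (3.52-fold lower). All 16 effectors that reached 1 FPKM were lower. The 3 that did not, Oas2, Oas3 and Oasl1, averaged 0.578, 0.0837 and 0.699 FPKM with DMSO and 0.0617, 0.0130 and 0.0113 FPKM with SAG.

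The transcription and feedback genes were lower as a group, 4 of 4. Irf7, the factor that amplifies type I interferon transcription, averaged 30.9 FPKM with DMSO and 5.02 FPKM with SAG, and Usp18, the protease that removes ISG15 and dampens the receptor, averaged 23.0 and 3.44 FPKM. Stat2 averaged 21.9 and 8.07 FPKM. Irf9 sat closest to the 2-fold limit of all the members counted as lower, with 21.8 and 10.8 FPKM (2.02-fold). The RNA sensors were 3 of 3 lower: Ifih1 (MDA5) 3.38-fold, Ddx58 (RIG-I) 2.61-fold and Dhx58 (LGP2) 5.03-fold. Parp9, Parp14 and Dtx3l, an ADP-ribosylation group, were 2.77-fold, 4.25-fold and 3.03-fold lower. Parp9 and Dtx3l overlap in the annotation, so fragments from their shared stretch cannot be assigned with certainty.

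The interferon-inducible GTPases and the peptide transporter subunit Tap1 were 5 of 5 lower. Gbp3 had the largest ratio among them, from 18.7 to 2.20 FPKM (8.47-fold), and Tap1 the smallest, from 14.6 to 5.31 FPKM (2.74-fold). Irgm1, Gbp2 and Igtp lay between, at 3.24-fold, 3.26-fold and 5.35-fold lower. Among the remaining members Ifi44 was 8.97-fold lower (23.5 and 2.62 FPKM), Rtp4 4.45-fold and Ifi35 2.17-fold. Ifi27, a small mitochondrial protein gene, was the exception, with 60.5 FPKM with DMSO and 69.1 FPKM with SAG. Ifi27 overlaps the related gene Ifi27l2a in the annotation, and the 2 may share fragments.

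**Figure D1:**
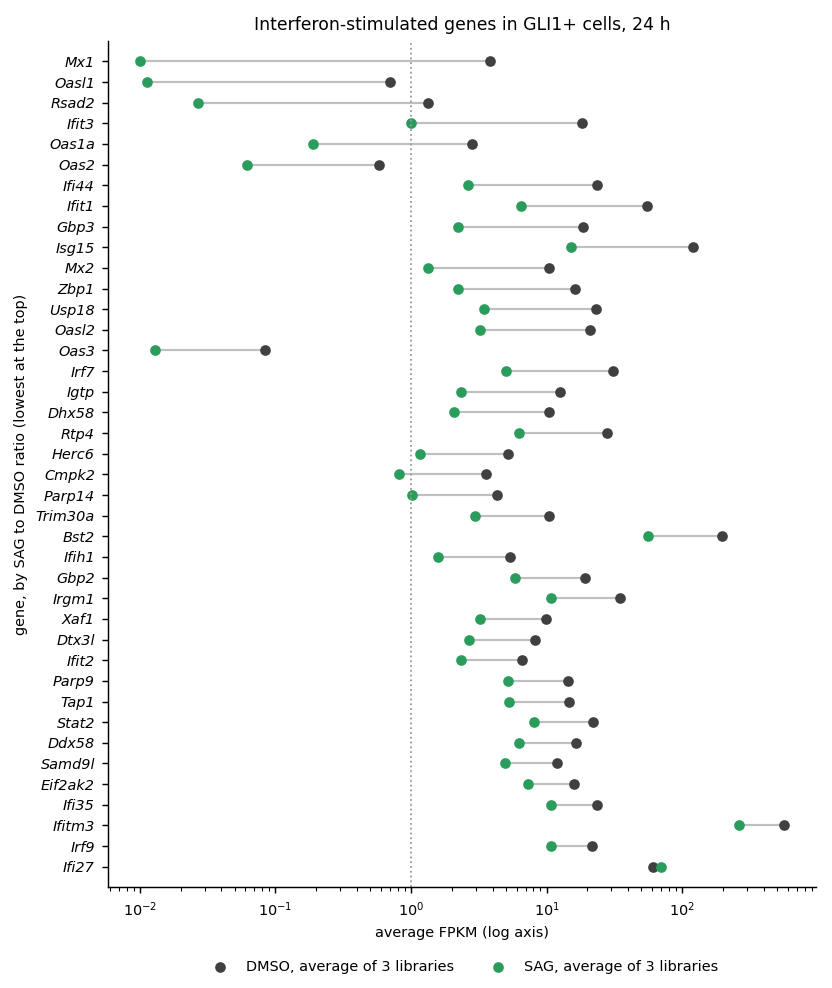
Average FPKM of the 40 interferon-stimulated genes in GLI1+ cells (log axis; gray, DMSO; green, SAG; each point the authors' average of 3 libraries), ordered by the ratio of SAG to DMSO. The SAG point lies left of the DMSO point in every row except Ifi27 (60.5 and 69.1 FPKM), and the dotted line marks 1 FPKM.

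The averages of the receptors and kinases upstream of the members were close. This does not hold for all upstream genes, since Stat2, Irf9, Irf7 and the RNA sensors, which are members themselves, were lower as given above. Of 8 receptors and kinases that reached 1 FPKM, 0 were 2-fold lower or higher, and their log2 ratios ran from -0.11 to 0.12. The type I receptor chains Ifnar1 and Ifnar2 averaged 9.34 and 22.6 FPKM with DMSO and 9.83 and 20.9 FPKM with SAG. The interferon gamma receptor chains Ifngr1 and Ifngr2 averaged 13.8 and 9.16 FPKM with DMSO and 13.4 and 9.98 FPKM with SAG. The transcription factor genes Irf1, Irf2 and Irf3 had log2 ratios of -0.26, -0.15 and -0.07. Among 8 sensors and adaptors only the double-stranded RNA receptor Tlr3 was 2-fold lower, from 4.67 to 2.03 FPKM.

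The wider list of induced genes had 30 of 45 at least 2-fold lower and 0 at least 2-fold higher. It included the chemokine Cxcl10 (1.29 and 0.0207 FPKM), the GTPases Iigp1 (25.6 and 2.58 FPKM) and Ifi47 (11.1 and 1.77 FPKM), and the immunoproteasome subunits Psmb8 (14.3 and 3.56 FPKM) and Psmb9 (5.76 and 1.31 FPKM). Of the interferon genes themselves only Ifng had a row used here, and it was listed at 0 in both groups. Tgtp1 and Tgtp2, near-identical copies, were 4.33-fold and 4.36-fold lower, but their counts cannot be separated with certainty.

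Markers of blood cells, ECs and RPE were low in these cultures. The 5 hematopoietic markers summed to 0.180 FPKM with DMSO and 0.238 FPKM with SAG, with Ptprc (CD45) at 0.00233 and 0.00333 FPKM. The 6 macrophage markers summed to 0.716 and 1.21 FPKM, and the 6 EC markers to 0.453 and 0.479 FPKM. The 5 smooth muscle markers, led by Acta2 and Tagln, summed to 619 and 640 FPKM, none of them 2-fold different. The 7 stromal markers summed to 5049 FPKM with DMSO and 4468 FPKM with SAG, all 7 lower by at most 1.40-fold. The 5 RPE markers summed to 6.33 FPKM with DMSO and 8.74 FPKM with SAG. Their part in the members' averages was not tested.

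Deleting endothelial Ihh in the animal was not accompanied by a change of comparable size in the members. IHH is the ligand whose pathway SAG activates, and Ihh averaged 1.53 FPKM in wild-type RPE/choroid and 0.454 FPKM after deletion. Of the Hedgehog response genes that reached 1 FPKM, 3 others were lower as well, Gli1 averaging 9.40 and 3.15 FPKM, Ptch1 7.69 and 4.98 FPKM and Hhip 1.05 and 0.346 FPKM, while Foxf1 was higher, at 0.707 and 1.72 FPKM. Since tissue dilutes what happens in 1 cell type, a 1.5-fold limit was used. Of 33 members that reached 1 FPKM, 0 were 1.5-fold lower and 0 were 1.5-fold higher, beside 2.53% and 2.17% of the 11411 genes that reached 1 FPKM. The members' median log2 ratio was -0.10 and that of all genes -0.04.

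The single values were close. Isg15 averaged 5.46 FPKM in wild-type tissue and 6.35 FPKM after deletion, Ifit1 3.29 and 3.11 FPKM, Irf7 4.94 and 4.43 FPKM, and Bst2 70.7 and 68.6 FPKM. The largest ratios among the 33 were those of Dhx58, at 1.25 and 0.944 FPKM (1.33-fold lower), and of Cmpk2, a mitochondrial nucleotide kinase next to Rsad2, at 2.41 and 1.82 FPKM (1.32-fold lower). Of the 7 members below 1 FPKM in both groups, Oasl1 (0.369 and 0.965 FPKM) and Oas3 (0.124 and 0.239 FPKM) were higher after deletion, and Mx1, Mx2, Oas2, Ifi44 and Herc6 were within 1.25-fold.

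In the wider lists, the receptors and kinases were all within 1.42-fold. Socs3, an inhibitor of JAK signaling, averaged 16.2 FPKM in wild-type tissue and 4.81 FPKM after deletion (3.38-fold lower), and the related inhibitor Socs1, at 3.09 and 2.06 FPKM, was just short of 1.5-fold. Among 45 other induced genes 4 were higher: Gm14446, Cxcl10, Ccl2 and Ccl7. Gm14446 (Ifit1bl1, an Ifit1 relative that overlaps Ifit1 in the annotation) averaged 0.296 and 4.13 FPKM. Cxcl10 averaged 0.850 and 1.39 FPKM, Ccl2 1.05 and 2.04 FPKM, and Ccl7 1.04 and 1.76 FPKM. Gm14446 and Cxcl10 reached 1 FPKM only after deletion. In this tissue fewer cells of a type and less mRNA per cell cannot be told apart. Stromal markers were lower after deletion (5 of 7 past 1.5-fold, sum 765 and 489 FPKM), melanocyte markers too (3 of 5, sum 2118 and 1319 FPKM), mast cell markers too (3 of 4 that reached 1 FPKM), and the RPE list summed to 8576 and 10352 FPKM. Their part in the members' values was not tested.

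**Figure D2:**
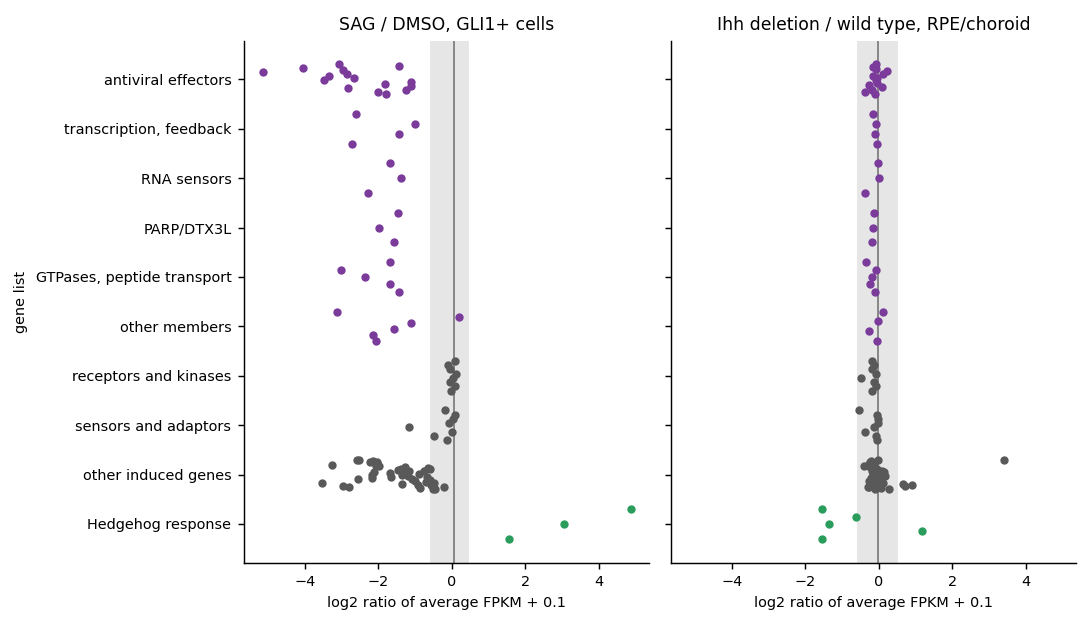
log2 ratio of average FPKM (pseudocount 0.1) for each gene that reached 1 FPKM, by list, in GLI1+ cells (left, SAG over DMSO) and RPE/choroid (right, Ihh deletion over wild type). Purple, the 40 interferon-stimulated genes; gray, other genes of the pathway in 3 lists; green, Hedgehog response; the shaded band holds the middle 95% of all genes and the line their median. On the left the members lie at or below -1.0, down to -5.15, apart from Ifi27 at 0.19 and on the right between -0.38 and 0.22.

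Levels in the culture and in the tissue can be set side by side only with care, since the tables were made separately and a culture of 1 cell type is compared with a mixture. With DMSO, 35 of 37 members that reached 1 FPKM in either were higher than in wild-type RPE/choroid, and the median log2 ratio was 2.04, against 0.05 over all 11823 genes. With SAG, 24 of the 37 were higher, and the median was 0.21, near the 0.11 over all genes. The share of all genes that were higher was not counted for either group. The order within the Ifit genes also differed. Ifit1 averaged 54.8 FPKM and Ifit3 18.4 FPKM in DMSO cultures, but Ifit1 averaged 3.29 FPKM and Ifit3 23.4 FPKM in wild-type tissue.

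At the level of single cells the members were not evenly distributed over the tissue. UMIs of the members were summed over the cells of a cluster and divided by all UMIs of those cells, which is given per 10,000. Each sum carries a 95% exact Poisson interval, which covers counting error only. Ifitm3 and Bst2, which are abundant and widely transcribed, were kept out of the sum and are described separately, which leaves 37 genes with counts. With 1 library per strain there is no test between cell types or strains, and clusters are compared only by these intervals.

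Schwann cluster 12 had the highest sum in both libraries, 17.7 UMIs per 10,000 (interval 16.3 to 19.3) in B6129PF1/J and 28.5 (26.5 to 30.6) in C57BL/6J. With Ifitm3 and Bst2 included, Kdr low ECs were highest instead, at 42.1 and 59.4, and Schwann cluster 12 was at 30.9 and 49.997. Without them stromal cluster 5 came next, with 14.5 (14.04 to 14.9) and 24.4 (23.8 to 24.97). Stromal cluster 8 had 13.9 (13.01 to 14.9) and 21.6 (20.3 to 22.9), and in C57BL/6J the Kdr low ECs lay between these stromal clusters at 23.1 (21.5 to 24.8). The intervals of stromal clusters 5 and 8 overlapped in B6129PF1/J and did not in C57BL/6J. RPE cells had 4.57 (4.34 to 4.82) and 7.64 (7.23 to 8.06), and smooth muscle cells 5.66 (5.31 to 6.02) and 7.84 (7.43 to 8.26). The myelin-rich Schwann cluster 13 was at 3.91 (2.82 to 5.28) and 10.3 (8.53 to 12.2), so the 2 Schwann clusters had the highest and the lowest sum in B6129PF1/J, although the interval of cluster 13 overlapped that of RPE cells. Hematopoietic cells were in the middle, with 8.97 (8.20 to 9.80) and 15.3 (14.3 to 16.3). Ifi27, described below, made up 27.9% and 18.7% of the sum of Schwann cluster 12. Without Ifi27 that cluster was still highest, at 12.8 (11.5 to 14.1) and 23.2 (21.4 to 25.1). Its interval then overlapped those of stromal cluster 5 (10.8 to 11.6), stromal cluster 8 and Kdr low ECs in B6129PF1/J. In C57BL/6J it overlapped that of Kdr low ECs (19.2 to 22.3).

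**Figure D3:**
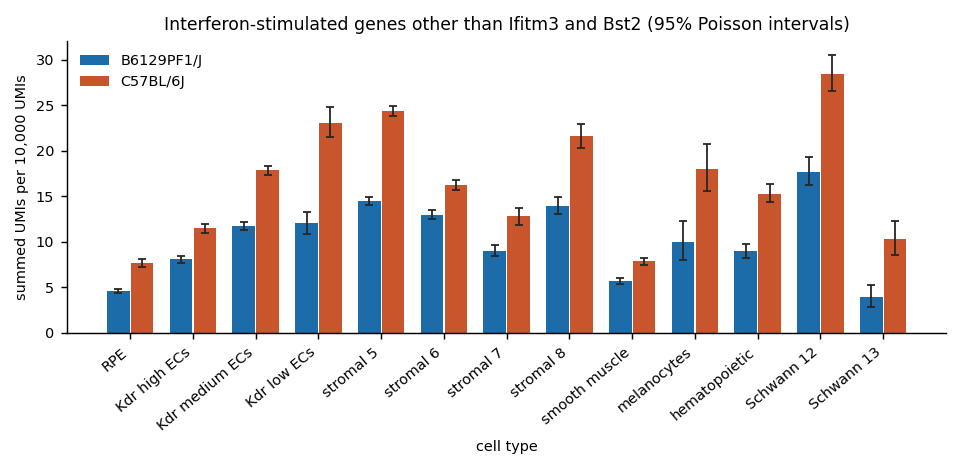
Summed UMIs per 10,000 of the interferon-stimulated genes other than Ifitm3 and Bst2 in the 13 clusters of both libraries (bars, 1 library each; lines, 95% exact Poisson intervals). Without these 2 genes Schwann cluster 12 is highest in both libraries (17.7 and 28.5), and the C57BL/6J bar is above the B6129PF1/J bar in every cluster.

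Within the choroidal ECs the sum was lowest where Kdr, the VEGF receptor gene, was highest. It was 8.06 (7.66 to 8.47) in Kdr high ECs, assigned by the study to the choriocapillaris, 11.7 (11.3 to 12.1) in Kdr medium ECs and 12.0 (10.9 to 13.3) in Kdr low ECs of B6129PF1/J. The last 2 overlapped. In C57BL/6J the values were 11.5 (10.997 to 12.0) and 17.9 (17.4 to 18.4), below the Kdr low value given above, with no overlap. Ifitm3 alone followed the same order, with 6.73, 20.1 and 27.3 UMIs per 10,000 in B6129PF1/J and 10.7, 25.05 and 32.2 in C57BL/6J. It was at 0.567 and 1.04 in RPE cells. Isg15 did so too, with 0.604, 1.78 and 2.84 in B6129PF1/J and 0.942, 3.46 and 5.65 in C57BL/6J. Rsad2 ran the other way, with 0.436, 0.265 and 0.153 in B6129PF1/J and 0.652, 0.375 and 0.242 in C57BL/6J, and its Kdr high and Kdr medium intervals did not overlap in either library. Ifi35, an NMI partner, was also highest in Kdr high ECs in both libraries (1.38 and 1.85 UMIs per 10,000), though not apart from the next cluster. Bst2 was nearly level over the 3 EC clusters, from 2.65 to 2.81 in B6129PF1/J and from 3.90 to 4.25 in C57BL/6J.

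Ifit1 and Ifit3 were high in stromal cluster 5 and, in C57BL/6J, in Schwann cluster 12. Ifit1 reached 1.09 and 1.25 UMIs per 10,000 in stromal clusters 5 and 8 of B6129PF1/J and 3.03 and 3.33 in C57BL/6J, and 0.588 and 3.30 in Schwann cluster 12. In Kdr high ECs it had 0 UMIs in B6129PF1/J, where 3 UMIs would have been 0.0157 per 10,000, and 0.0383 in C57BL/6J. In smooth muscle cells it was at 0.0394 and 0.0279. Ifit3 was at 1.12 and 2.02 in stromal cluster 5, 1.08 and 3.04 in Schwann cluster 12, and 1.01 and 2.51 in the few melanocytes (16 and 26 cells). In Schwann cluster 12 of C57BL/6J, 1 cell held 21 of the 83 Ifit3 UMIs. RPE cells separated the 2 genes. Ifit3 was at 0.377 (0.310 to 0.453) and 1.10 (0.948 to 1.26) there, while Ifit1 was at 0.00667 (0.000808 to 0.0241) and 0.143 (0.0926 to 0.211). Ifit3 UMIs were found in 21.1% and 23.0% of RPE cells, and Isg15 UMIs in 1.23% and 3.74%. Ifit2 was sparse, highest in Schwann cluster 13 in B6129PF1/J (0.186) and in melanocytes in C57BL/6J (0.289), not apart from the next cluster in either library. Oasl2 was highest in stromal cluster 5 in both libraries, at 0.642 and 1.22.

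Parp9 set another stromal population apart. It was at 0.881 UMIs per 10,000 in stromal cluster 6 and 0.592 in smooth muscle cells of B6129PF1/J, and at 0.826 and 0.865 in the same clusters of C57BL/6J. Stromal cluster 5 had 0.227 and 0.321. Its partner gene Dtx3l was highest in hematopoietic cells in B6129PF1/J (0.238) and in Schwann cluster 12 in C57BL/6J (0.257), and was at 0.127 and 0.132 in stromal cluster 6.

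Trim30a, a feedback regulator of Toll-like receptor signaling, was found mainly in ECs and hematopoietic cells. Its level was 0.572, 0.589 and 0.550 UMIs per 10,000 in the 3 EC clusters and 0.786 in hematopoietic cells of B6129PF1/J, against 0.00315 in stromal cluster 5 and 0.00333 in RPE cells. In C57BL/6J it was 0.570, 0.642 and 0.816 in ECs and 1.10 in hematopoietic cells, against 0.0325 and 0.0629. A Trim30a UMI was found in 25.1% of Kdr medium ECs of B6129PF1/J (exact binomial interval 21.1% to 29.5%) and in 0.118% of stromal cluster 5 cells (0.00299% to 0.655%). The median depths were 4147 and 3516.5 UMIs. In the cultured stromal cells Trim30a averaged 10.5 FPKM with DMSO and 2.98 FPKM with SAG.

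Hematopoietic cells were the highest cluster for 8 of 35 members with at least 10 UMIs in B6129PF1/J, beside 8.16% of all 14176 such genes, and for 8 of 36 in C57BL/6J, beside 9.02% of 13976 genes. In C57BL/6J they were not the leading cluster, since Kdr low ECs were highest for 9 members. With a minimum of 50 UMIs the number for hematopoietic cells in B6129PF1/J was 5, below the 6 each of Kdr medium ECs and Schwann cluster 12. In C57BL/6J it was 6, below the 9 of Kdr low ECs. The share over all genes was not computed at that minimum. For the other clusters it was not computed at either minimum. The levels that follow are those in hematopoietic cells. Irf7 was at 0.402 and 1.19 UMIs per 10,000 there, Tap1 at 0.603 and 0.742, Dhx58 at 0.256 and 0.396, and Zbp1, a sensor of left-handed nucleic acids, at 0.183 and 0.709. Of these, Zbp1 stood apart from the next cluster in both libraries and Irf7 in C57BL/6J. Ifi44 did not keep its place. In B6129PF1/J it was at 0.365 (0.223 to 0.564) in hematopoietic cells and 0.0290 in Kdr medium ECs. In C57BL/6J it was at 0.0495 (0.0102 to 0.145) in hematopoietic cells and 0.189 (0.141 to 0.249) in Kdr medium ECs. The mast cell markers given above moved with the library in this cluster, and their part was not tested. The highest cluster was the same in both libraries for 19 of 35 members. It stood apart from the next by its interval for 5 of 35 members in B6129PF1/J and 4 of 36 in C57BL/6J. Neither count was made for all genes, so these counts have no background beside them.

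**Figure D4:**
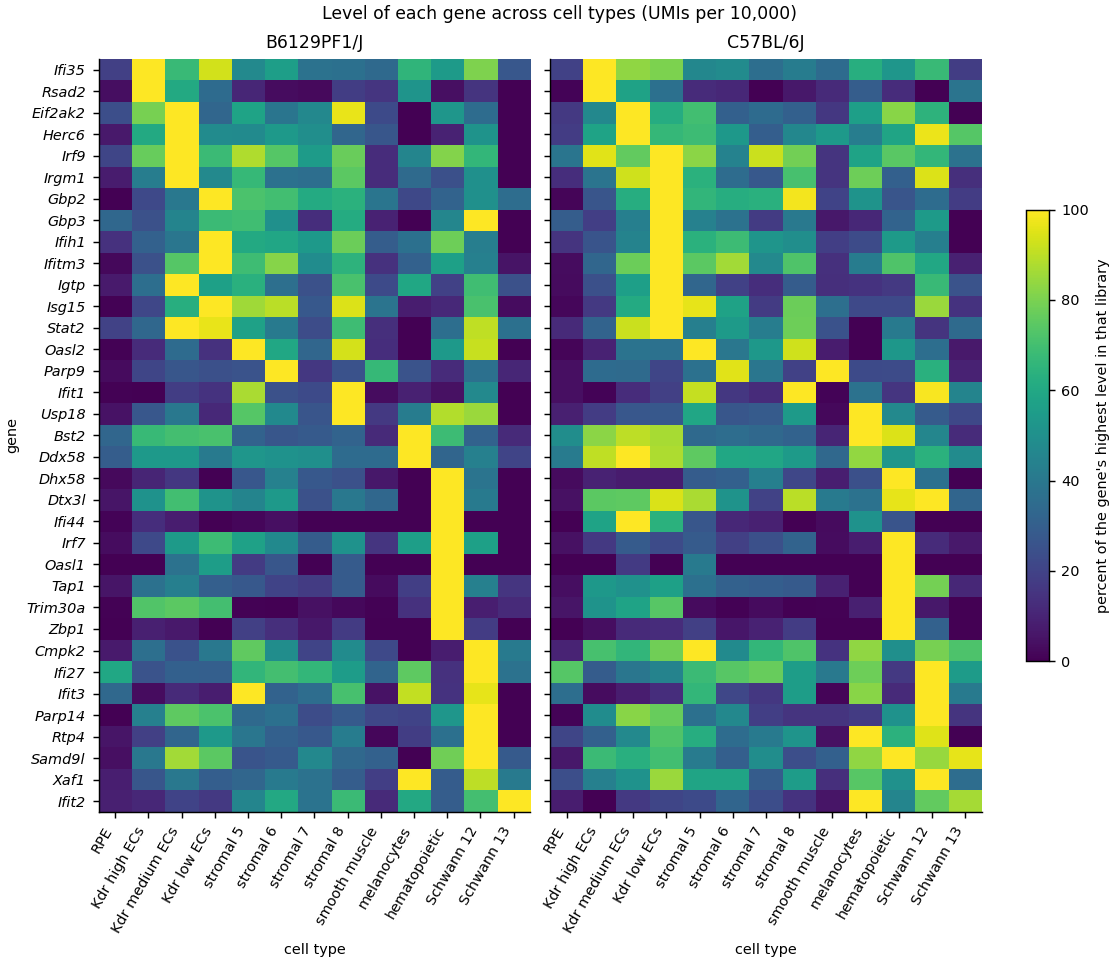
Level of each of 35 genes with at least 10 UMIs in both libraries across the 13 clusters, as percent of the gene's highest level in that library (UMIs per 10,000; left, B6129PF1/J; right, C57BL/6J). The genes differ in where they are highest: Rsad2 and Ifi35 in Kdr high ECs, Ifit1 and Ifit3 in stromal and Schwann clusters, and Trim30a, Irf7, Tap1 and Zbp1 in hematopoietic cells of both libraries.

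RPE cells owed most of their sum to a single gene. Ifi27 made up 64.2% of the RPE sum in B6129PF1/J and 51.3% in C57BL/6J, against 12.9% and 11.7% in Kdr medium ECs. Without Ifi27 the RPE sum was 1.64 (1.496 to 1.79) and 3.72 (3.44 to 4.02), the lowest of the 13 clusters in both libraries, its interval overlapping that of Schwann cluster 13 in B6129PF1/J (1.28 to 3.10). Ifi27 itself was at 2.94 and 3.92 UMIs per 10,000 in RPE cells and was highest in Schwann cluster 12 (4.94 and 5.32). It was lowest in hematopoietic cells, at 0.713 and 0.890. The PARP and DTX3L genes together had 0.0400 and 0.0515 UMIs per 10,000 in RPE cells and 1.21 and 1.22 in stromal cluster 6.

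The C57BL/6J library had more member UMIs than the B6129PF1/J library in all 13 clusters, and the intervals of the sums did not overlap in any of the 13. The ratio of the sums ran from 1.25 to 2.63, with a median of 1.61. Gene by gene, 15 of 29 members with at least 50 UMIs in stromal cluster 5 were at least 1.5-fold higher in C57BL/6J and 0 were 1.5-fold lower, beside 4.69% and 4.4% of 8585 genes. In Kdr medium ECs 15 of 31 were higher and 0 lower, beside 4.59% and 5.38% of 8155 genes. These 2 clusters and the 1.5-fold limit were chosen after the data had been seen.

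The largest ratio in stromal cluster 5 was that of Ifit1, 1.09 UMIs per 10,000 in B6129PF1/J and 3.03 in C57BL/6J. Usp18 was at 0.198 and 0.455 there, and Isg15 at 2.44 and 5.43. In Kdr medium ECs the largest were Ifi44, at 0.0290 and 0.189, and Gbp2, at 0.207 and 0.583. By role, the intervals were apart, with C57BL/6J higher, in 13 clusters for the antiviral effectors and 9 for the GTPases and peptide transport genes. The number was 9 for the remaining members, such as Ifi27 and Rtp4, and 5 for transcription and feedback. It was 1 for the PARP and DTX3L genes and 0 for the RNA sensors. In stromal cluster 5 the PARP and DTX3L genes had 166 and 207 UMIs and the RNA sensors 156 and 179, against 320 and 401 for transcription and feedback. In stromal cluster 6 the PARP and DTX3L genes had 248 and 231 UMIs, against 160 and 163 for transcription and feedback. Differences between groups, and the part of UMI number in them, were not tested. Each library is 1 pool of 2 eyes, so strain, animals and library cannot be told apart.

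UMIs of several members were found in single cell barcodes. RPE markers summed to between 3.51 and 23.6 UMIs per 10,000 in the clusters other than RPE, and the part of such stray UMIs in the shares below was not tested. Counting the 37 genes, 21.8% of B6129PF1/J cells (interval 20.4% to 23.2%) and 29.6% of C57BL/6J cells (28.2% to 31.0%) had at least 1 UMI of 5 or more members. This count grew with depth, so each cell was thinned to 1700 UMIs, which left out no cell. The shares were then 4.23% (3.603% to 4.94%) and 9.95% (9.04% to 10.9%). The order of the libraries stayed, although the median depth was 3881 UMIs in B6129PF1/J and 3174.5 in C57BL/6J. After thinning, Schwann cluster 12 had 7.41% and 22.2%, stromal cluster 5 had 7.31% and 17.4%, and Kdr medium ECs had 5.58% and 14.2%. The fewer Kdr low ECs had 6.35% (1.76% to 15.5%) and 18.1% (9.98% to 28.9%). RPE cells, the cluster with the lowest sum apart from Ifi27, had 0 of 407 cells in B6129PF1/J (exact binomial upper bound 0.902%) and 1.07% (0.292% to 2.72%) in C57BL/6J. Smooth muscle cells had 1.34% and 0.648%, with overlapping intervals. Hematopoietic cells had 0.943% (0.0239% to 5.14%) and 15.0% (9.25% to 22.4%). The limit of 5 divides a continuous range, since 388 and 465 cells had exactly 4 members and 273 and 332 had exactly 5 before thinning.

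**Figure D5:**
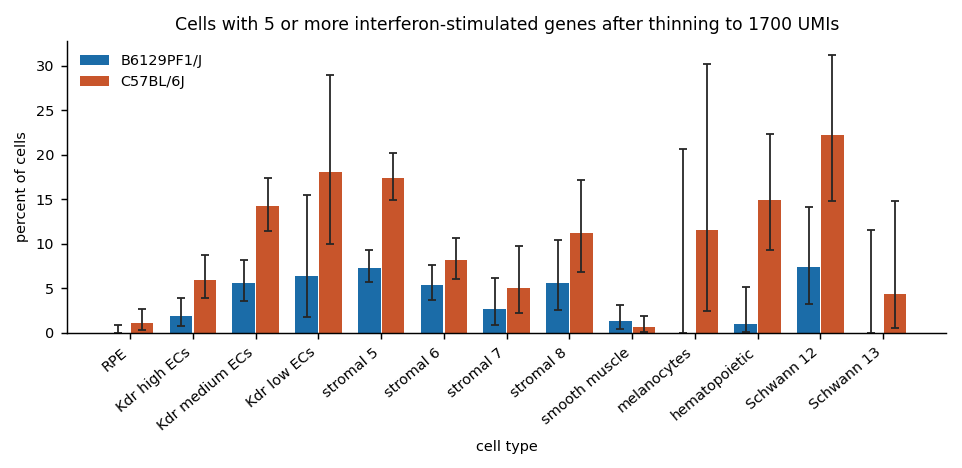
Percent of cells with at least 1 UMI of 5 or more interferon-stimulated genes (of 37) after each cell was thinned to 1700 UMIs, by cluster and library (bars, 1 library each; lines, 95% exact binomial intervals). Stromal cluster 5 (7.31% and 17.4%), Schwann cluster 12 (7.41% and 22.2%) and Kdr low ECs (6.35% and 18.1%) are high in both libraries. RPE and smooth muscle cells are at 1.34% or below.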

How the data were processed

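The scRNAseq tables are counts deposited by the authors: UMI counts per gene and cell from Cell Ranger, filtered and clustered with Seurat 2.1 (mm10), leaving cells of at least 1700 UMIs. The authors also deposited average FPKM per group for the bulk data, which were aligned with STAR 2.4.0f1 and quantified with Cufflinks 2.0.2 per the labels and methods. Their fold changes and adjusted p-values in the same files were not used. Here, UMIs were summed per cluster and library in Python 3.11.15 with scipy 1.17.1, with exact Poisson and binomial intervals. Thinning drew UMIs without replacement. Bulk ratios used no pseudocount, and log2 ratios a pseudocount of 0.1 FPKM. Folds, intervals and thinning were tested on simulated data. No test between groups was run, because the tables hold 1 average per group or 1 library per strain. All members could be named; other genes were named from fixed pathway lists where they reached 1 FPKM and passed the fold limit, plus the Hedgehog genes and the receptor chains. A result of the list of transcription factors and inhibitors is not reported here. Irf1, Irf2, Irf3, Socs1 and the overlapping or marker genes were named after their values were seen. The members and lists were chosen with earlier results of these data known. Promoters are RefSeq sequences of GRCm38.p6, the build that mm10 names. The EC libraries of other organs and the table of choroid EC-enriched genes were not used here, nor were the deposited cluster averages and cluster tests of each scRNAseq library.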

Additional observations from a re-analysis of the deposited data

How the results depend on the processing

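Of 61 recomputed values, 40 stayed within the limits used (1.5-fold for counts, 0.1 for log2 medians, the 95% interval for levels and shares) and none changed sign. With SAG, 35 to 39 members were lower and 0 higher under the filters, pseudocount, scaling and 1.5-fold limit tried. The members' median log2 ratio was -1.53 with a pseudocount of 1 FPKM. After Ihh deletion, 2 members (Oasl1 and Oas3) were higher without the FPKM filter. In hematopoietic cells the B6129PF1/J sum was 8.16 thinned, 27.1 with all members and 4.96 without cells with 5 or more members, and the C57BL/6J sum was 16.8 as a mean over cells, 17.6 thinned, 43.2 with all members and 6.56 without such cells. The members highest in hematopoietic cells of B6129PF1/J numbered 5 with a minimum of 50 UMIs. The percent of cells was 50.2 and 56.5 (B6129PF1/J, C57BL/6J) for 3 or more members, 7.01 and 11.9 for 8 or more, 4.23 and 9.95 thinned, and 38.1 and 46.6 with all members. The gamma-activated letters gave 23.3%. At a 2-fold limit, 4 of 29 members in stromal cluster 5 and 5 of 31 in Kdr medium ECs were higher in C57BL/6J, alternatives chosen after seeing the data. The share of all genes at that limit was not computed, so these counts have no background beside them. No paired analysis was possible because the tables hold only group averages. The spread between libraries is unknown for the bulk data, and each strain is 1 library.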

Other observations

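Within the hematopoietic cluster, cells with UMIs of at least 2 of the complement genes C1qa, C1qb and C1qc, which mark macrophages, had higher member sums than the other cells. In B6129PF1/J the sum was 13.03 UMIs per 10,000 (interval 11.5 to 14.7) in 40 C1q-positive cells and 6.54 (5.71 to 7.46) in 66 others. In C57BL/6J it was 19.2 (17.5 to 21.1) in 53 cells and 12.96 (11.8 to 14.2) in 74 others. Ifi44 had 13 UMIs in the C1q-positive cells of B6129PF1/J and 1 UMI in those of C57BL/6J.

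Stromal cells with a UMI of the Hedgehog targets Gli1 or Hhip were compared with the other cells of stromal clusters 5 to 8. The member sum was 13.3 (12.6 to 14.1) in 211 such cells and 13.3 (12.96 to 13.6) in 1523 others of B6129PF1/J, and 18.9 (17.9 to 20.05) in 171 cells and 20.4 (20.02 to 20.8) in 1589 others of C57BL/6J. The intervals overlapped in both libraries, in C57BL/6J only just. Within stromal cluster 6 of C57BL/6J they did not, with 12.3 (10.2 to 14.6) in 33 such cells and 16.4 (15.8 to 17.04) in 570 others, while in B6129PF1/J that cluster had 11.4 (9.85 to 13.1) and 13.1 (12.6 to 13.6). Stromal cluster 8 of C57BL/6J differed in the opposite direction, with 28.6 (23.6 to 34.3) in 12 such cells and 20.9 (19.6 to 22.3) in 148 others. In B6129PF1/J that cluster had 12.6 (10.5 to 14.9) and 14.2 (13.2 to 15.3). Stromal clusters 5 and 7 of B6129PF1/J were higher in such cells, with overlapping intervals. Cluster 5 had 15.6 (14.5 to 16.9) and 14.3 (13.8 to 14.7), and cluster 7 had 10.2 (8.89 to 11.7) and 8.63 (7.92 to 9.38). The values of clusters 5 and 7 in C57BL/6J are not given here. A cell without a UMI of either gene is not shown to lack its mRNA at this depth.

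Single cells could hold a large share of a gene's UMIs. In stromal cluster 5 of C57BL/6J, 1 cell held 128 of the 1504 Isg15 UMIs, and the highest cell for Ifit1 held 38 of 840. In B6129PF1/J the highest cell of that cluster held 17 of 774 Isg15 UMIs. The shares were larger in Schwann cluster 12. There the highest cells of C57BL/6J held 21 of 83 Ifit3 UMIs, 22 of 131 Isg15 UMIs and 13 of 90 Ifit1 UMIs. The highest cells of B6129PF1/J held 7 of 33, 4 of 62 and 3 of 18.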
